A study of Homo sapiens with 26 samples.

Results

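The comparison set 5 doxorubicin-resistant cell lines of diffuse large B-cell lymphoma (DLBCL), which were DB, OCI-Ly7, RIVA, SU-DHL-4 and U2932, against 5 doxorubicin-sensitive lines, which were FARAGE, NU-DHL-1, OCI-Ly19, SU-DHL-5 and SU-DHL-8. The class of each line was taken from its sample labels, although a table of cell lines in the study gives OCI-Ly7 as sensitive, and the 10 lines are part of a panel of 26 B-cell cancer lines, of which 14 were treated as DLBCL and the others as multiple myeloma (MM). The 4 DLBCL lines of intermediate class, HBL-1, NU-DUL-1, OCI-Ly3 and MC-116, were left out of the class comparison, and MC-116 is labelled as an undifferentiated lymphoma. All lines are established cell lines that had received no drug when RNA was taken, so the expression values describe the untreated state of cells whose response to doxorubicin was measured separately. All 10 lines grew in RPMI medium, with 20% serum for DB and SU-DHL-5 and 10% for the rest of them. Of the intermediate lines, OCI-Ly3 had 20% serum, NU-DUL-1 and MC-116 had 15% and HBL-1 had 10%. The study lists human serum and IMDM medium for OCI-Ly3. Of the MM lines used below, KMS-12-BM, KMS-12-PE, MOLP-8, NCI-H929 and AMO-1 had 20% serum and KMM-1, KMS-11 and MM1S had 10%. Each line was hybridised to 1 Affymetrix HG-U133 Plus 2.0 array, so a line is the replicate, and the properties of a line's donor tumour cannot be told apart from its response class.

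Doxorubicin is an anthracycline that traps topoisomerase II on DNA and leaves double strand breaks, and it is the H of the CHOP regimen given for DLBCL. Cells are known to lower their exposure to it through efflux pumps such as P-glycoprotein, the product of ABCB1, and to die from its damage through p53 and the mitochondrial pathway governed by the BCL2 family. DLBCL arises from B cells of the germinal centre or from more activated B cells (ABC), and the tumours are known for losing surface molecules that T and NK cells use to recognise them, such as MHC class I and CD58.

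Response was summarised by AUC0, the area under the positive part of a growth-rate based dose response curve, in which a higher value means a more resistant line. The AUC0 for doxorubicin was 276 in DB, 325 in OCI-Ly7, 327 in RIVA, 289 in SU-DHL-4 and 295 in U2932. It was 180 in FARAGE, 201 in NU-DHL-1, 167 in OCI-Ly19, 202 in SU-DHL-5 and 222 in SU-DHL-8. The class means were 302.4 ± 22.6 and 194.4 ± 21.3 (SD, n = 5 and 5), and these values define the classes and are therefore given without a test. The classes are tertiles with narrow gaps at their borders, because SU-DHL-8 at 222 was called sensitive while NU-DUL-1 at 224 was intermediate, and DB at 276 was called resistant while HBL-1 and MC-116 at 272 were intermediate. The labelled ranges of the estimates overlapped at both borders, as the plot of AUC0 by line shows, and the level of these ranges is not stated in the labels.

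**Figure D1:**
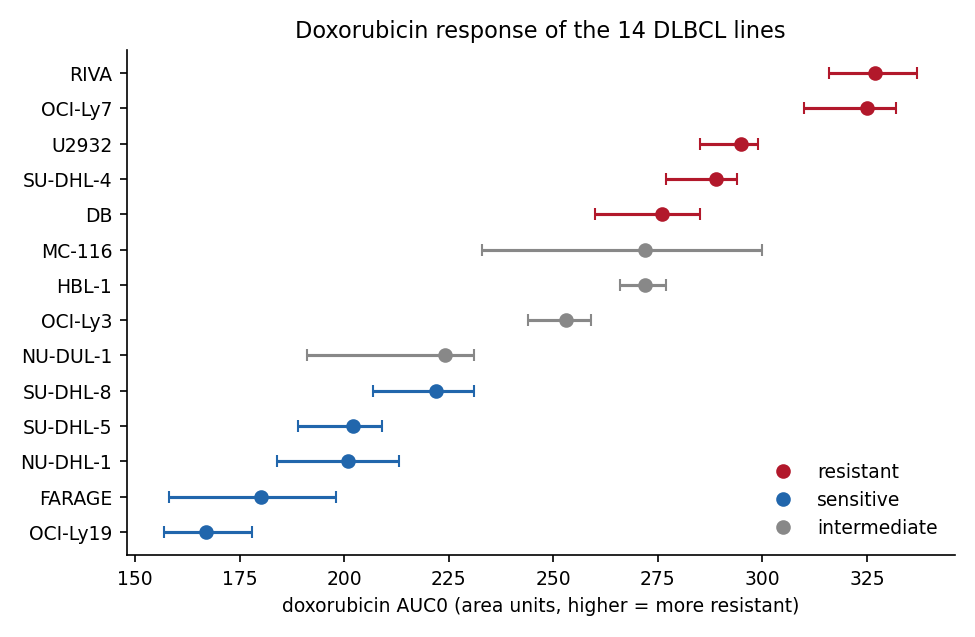
Doxorubicin AUC0 of the DLBCL lines by response class, with the labelled range of each estimate as a bar. The resistant lines lie between 276 and 327 and the sensitive lines between 167 and 222, and the intermediate lines reach to within a few units of both classes.

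The arrays of the 10 lines had medians of 5.65 to 5.72 on the log2 scale and correlated pairwise at 0.908 to 0.961, so no array stood apart. The B-cell genes CD79A, a subunit of the B-cell receptor, and PAX5, the B-lineage transcription factor, were measured at 10.23 to 12.46 and 10.17 to 11.56, whereas the T-cell genes CD3D, CD3E, CD3G and CD2 were at 4.29 to 5.80. Among myeloid genes, lysozyme (LYZ) was at 7.39 in NU-DHL-1 and 6.96 in SU-DHL-8 and at most 4.18 in the remaining lines. RIVA and U2932 had the highest mean level of 19 ABC markers, at 9.21 and 9.12 against 6.63 to 8.57 in the other 8 lines. Both are resistant, so some results are also given without them. Of 54613 probe-sets tested with limma, 2 (0.00366%) passed an adjusted p of 0.05, so all other differences named here are values that did not pass. With 1 probe-set per gene, 4.22% of 19775 named genes were higher and 4.5% were lower in resistant lines at an unadjusted p under 0.05. By the same count 0.657% of genes were higher and 0.88% were lower with no overlap between the 5 resistant and the 5 sensitive lines. Over all probe-sets 326 were higher and 410 lower without overlap, and this split was 274 and 526 when each array was centred on its median.

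PFN2, which encodes profilin 2, a protein that binds actin monomers, rose in the resistant lines and was the only named gene to pass whose probe-set is not shared with a gene family. It was at 10.11 in DB, 9.53 in OCI-Ly7, 8.82 in RIVA, 10.77 in SU-DHL-4 and 9.80 in U2932. It was at 5.22 in FARAGE, 5.30 in NU-DHL-1, 6.49 in OCI-Ly19, 5.13 in SU-DHL-5 and 5.16 in SU-DHL-8. Every resistant line lay above every sensitive line, and the difference of 4.35 on the log2 scale (SE 0.38, 95% interval 3.50 to 5.19) had an adjusted p of 0.0133 by limma. The intermediate lines, which took no part in that test, fell on both sides, with 10.60 in HBL-1, 9.02 in OCI-Ly3, 6.45 in MC-116 and 4.83 in NU-DUL-1. PFN2 has a single probe-set on the array, and its call was lost when FARAGE, NU-DHL-1, SU-DHL-8, OCI-Ly7 or U2932 was left out, although the difference stayed between 4.11 and 4.60 with any line left out. The call was also lost in the fits over 14 DLBCL lines (adjusted p 0.392 by limma) and over 26 lines (adjusted p 0.251), where the difference was the same and the spread was estimated over more groups.

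IGKC, the constant part of the immunoglobulin kappa light chain, rose by 1 of its 8 probe-sets. The resistant lines were at 6.25 in DB, 6.79 in OCI-Ly7, 6.18 in RIVA, 6.43 in SU-DHL-4 and 6.84 in U2932. The sensitive lines were at 4.47 in FARAGE, 4.29 in NU-DHL-1, 4.53 in OCI-Ly19, 4.71 in SU-DHL-5 and 4.59 in SU-DHL-8. The groups did not overlap, and the difference was 1.98 (SE 0.15, adjusted p 0.00853 by limma), while the intermediate lines at 4.59 to 4.98 resembled the sensitive ones in level. The 7 other IGKC probe-sets differed by 0.01 to 2.53 and none passed, and a bright one was at 12.68 ± 2.65 in resistant and 10.89 ± 2.24 in sensitive lines (SD, n = 5 and 5). Light chain genes form a family of near-identical segments, so which transcript the called probe-set reads is uncertain, and its call was lost without FARAGE. The called probe-set was also dim, and the filter on dim probe-sets, at a mean of 6 over DLBCL lines, left it out.

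Among genes that did not pass, the largest separated difference was that of CNR1, the cannabinoid receptor 1. It was at 10.97 in DB, 11.23 in OCI-Ly7, 9.36 in RIVA, 10.26 in SU-DHL-4 and 9.93 in U2932. It was at 8.67 in FARAGE, 3.34 in NU-DHL-1, 4.34 in OCI-Ly19, 6.11 in SU-DHL-5 and 5.99 in SU-DHL-8. The sensitive lines spread widely, FARAGE came near the resistant range, and the difference was 4.66 (SE 0.88, adjusted p 0.413). TNFRSF17, which encodes BCMA, the receptor for APRIL and BAFF on plasma cells, was at 8.64 in DB, 9.99 in OCI-Ly7, 10.59 in RIVA, 10.28 in SU-DHL-4 and 13.14 in U2932. It was at 8.20 in FARAGE, 3.60 in NU-DHL-1, 7.79 in OCI-Ly19, 7.98 in SU-DHL-5 and 7.20 in SU-DHL-8, a difference of 3.57 (SE 1.02) with NU-DHL-1 far below the other sensitive lines. ERN1, which encodes IRE1, the sensor of unfolded proteins in the endoplasmic reticulum, was 6.90 to 8.52 in resistant and 4.95 to 6.04 in sensitive lines. Its difference was 2.06 (SE 0.34, adjusted p 0.329), and its 2 other probe-sets differed by 0.15 and 0.89.

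Other genes whose resistant lines all lay above the sensitive lines were AKAP13, an anchoring protein for protein kinase A (difference 1.66, SE 0.27), and ISG20, an interferon-inducible RNA exonuclease (2.42, SE 0.43). YPEL5 (1.79, SE 0.33), the smooth muscle myosin MYH11 (2.22, SE 0.41) and the laminin chain LAMC1 (2.72, SE 0.69) did so too. SCRN1 (3.74, SE 1.12), ZNF804A (3.09, SE 0.78) and the imprinted, retrotransposon-derived PEG10 (2.50, SE 0.94) had differences of similar size with a larger error, because their sensitive lines ranged over several log2 units.

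In the opposite direction, ETV5, a transcription factor of the ETS family that is switched on by ERK signalling, was lowest in the resistant lines. It was at 5.06 in DB, 4.69 in OCI-Ly7, 6.40 in RIVA, 5.19 in SU-DHL-4 and 5.83 in U2932. It was at 7.06 in FARAGE, 9.81 in NU-DHL-1, 9.46 in OCI-Ly19, 8.29 in SU-DHL-5 and 9.48 in SU-DHL-8. All sensitive lines lay above all resistant lines, with FARAGE nearest to them, and the difference was -3.38 (SE 0.54, adjusted p 0.329). ITGB2, the common beta chain of the leukocyte integrins, was at 7.14 in DB, 7.67 in OCI-Ly7, 7.60 in RIVA, 7.82 in SU-DHL-4 and 5.94 in U2932. It was at 9.93 in FARAGE, 10.87 in NU-DHL-1, 9.59 in OCI-Ly19, 10.35 in SU-DHL-5 and 8.83 in SU-DHL-8. The groups did not overlap, U2932 was lowest of the resistant and SU-DHL-8 of the sensitive lines, the difference was -2.68 (SE 0.44), and the antisense gene ITGB2-AS1 differed by -2.57 (SE 0.66), although probe-sets of overlapping genes may read shared sequence.

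HEG1, a transmembrane protein of cell junctions, was at 4.29 to 6.40 in resistant and 7.27 to 9.67 in sensitive lines (difference -3.10, SE 0.53). TLE4, a corepressor of the Groucho family, differed by -2.37 (SE 0.75), and PRKCH, a protein kinase C, by -2.35 (SE 0.75). The interferon regulatory factor IRF2 differed by -1.93 (SE 0.59). RAG1, the recombinase that assembles antigen receptor genes, was separated only in form, because OCI-Ly19 at 9.55 and SU-DHL-8 at 9.23 stood high and the other 3 sensitive lines at 3.97 to 4.09 barely exceeded the resistant range of 3.64 to 3.88.

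**Figure D2:**
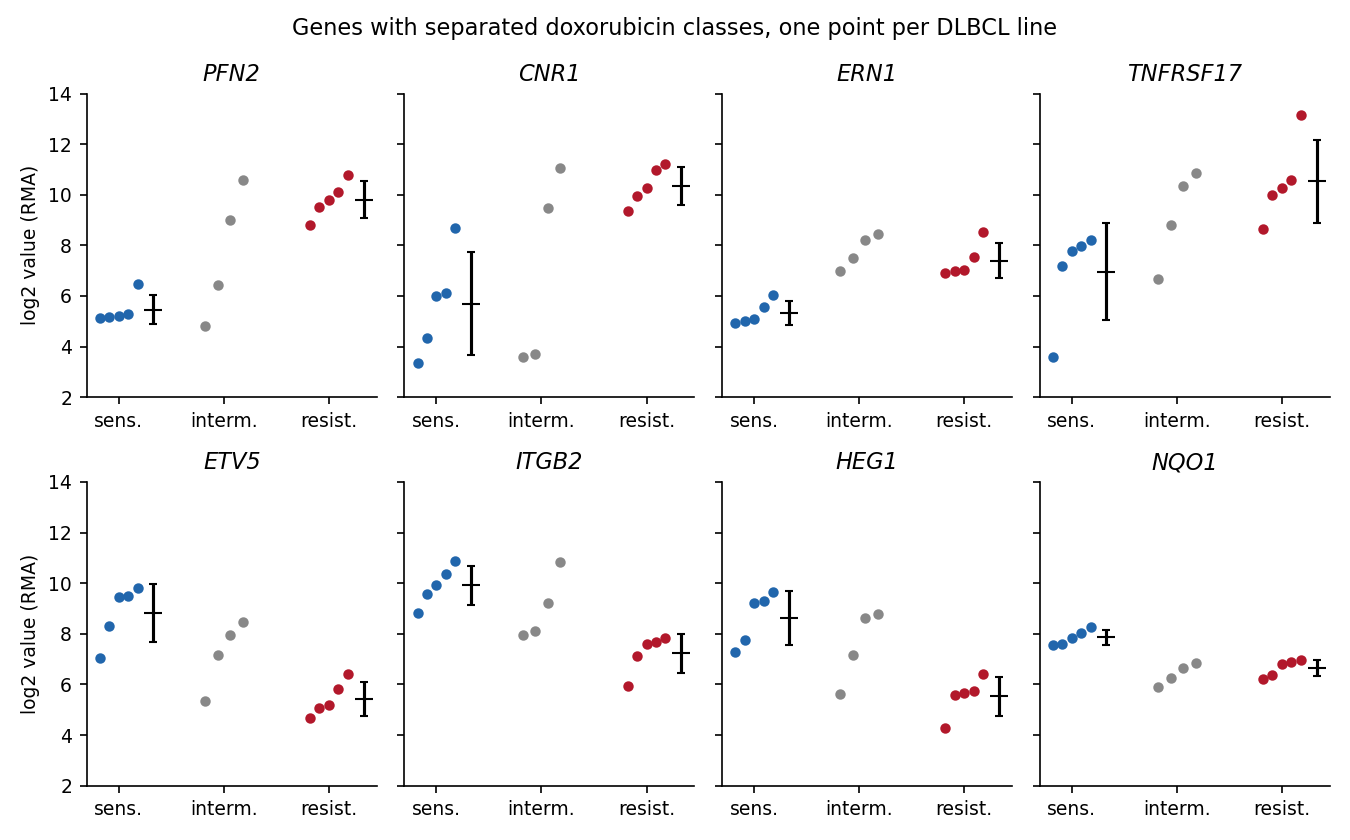
Expression on the log2 scale of 8 genes in each DLBCL line, grouped as resistant, intermediate and sensitive, with black bars for the mean ± SD of the resistant and sensitive classes (n = 5 and 5). PFN2, CNR1, ERN1 and TNFRSF17 are higher and ETV5, ITGB2, HEG1 and NQO1 are lower in every resistant line than in every sensitive line, while the intermediate lines, shown in grey, are scattered.

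Of 16 measured members of MHC class I presentation, 15 were lower in the resistant lines, 7 of them at an unadjusted p under 0.05, and the median difference was -0.76. Over all genes 9458 of 19775 were lower and the median difference was 0.012. At an unadjusted p under 0.05 by limma, 4.5% of all genes were lower and 4.22% higher, and the counts of the lists below stand beside these shares. The lists were chosen with earlier results of these data known, so their counts describe the members and are not a test. The 7 members were HLA-B, HLA-E, HLA-F, the peptide-trimming enzyme ERAP1 and the immunoproteasome subunits PSMB8, PSMB9 and PSMB10, and the only member that was not lower was the peptide transporter TAP2 (0.09, SE 0.28). The mean level over the 16 genes was 7.73 in DB, 9.15 in OCI-Ly7, 8.55 in RIVA, 8.31 in SU-DHL-4 and 8.76 in U2932. It was 9.31 in FARAGE, 9.53 in NU-DHL-1, 9.75 in OCI-Ly19, 9.01 in SU-DHL-5 and 9.68 in SU-DHL-8. DB was lowest of the 10 lines, and OCI-Ly7 lay above SU-DHL-5, so the groups overlapped at their borders. The median was -0.65 without DB and -0.83 without RIVA and U2932.

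HLA-E, which presents leader peptides to NK receptors, was at 6.44 in DB, 10.19 in OCI-Ly7, 10.12 in RIVA, 11.13 in SU-DHL-4 and 9.89 in U2932. It was at 11.01 in FARAGE, 11.99 in NU-DHL-1, 11.88 in OCI-Ly19, 10.85 in SU-DHL-5 and 12.09 in SU-DHL-8, a difference of -2.01 (SE 0.77). SU-DHL-4 lay within the sensitive range and DB far below it, and without DB the difference was -1.23. HLA-B, a classical MHC class I heavy chain, had the same shape, with 8.74 in DB against 11.01 to 11.93 in the other resistant lines and 11.05 to 12.82 in the sensitive lines (difference -1.40, SE 0.59, and -0.86 without DB). Heavy chains are near-identical in sequence, so their probe-sets may share signal. HLA-F was at 7.47 to 9.48 against 8.94 to 10.89 (-1.44, SE 0.45).

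ERAP1 was at 5.39 in DB, 6.36 in OCI-Ly7, 5.53 in RIVA, 4.20 in SU-DHL-4 and 5.49 in U2932, and at 6.68 in FARAGE, 6.85 in NU-DHL-1, 8.14 in OCI-Ly19, 7.83 in SU-DHL-5 and 7.88 in SU-DHL-8. These values did not overlap (-2.08, SE 0.41), but the 4 other ERAP1 probe-sets differed by -0.19 to 0.89, so the probe-sets of this gene disagree. PSMB10 did not overlap either, at 9.21 to 9.96 against 10.01 to 10.36 (-0.51, SE 0.14), and PSMB8 differed by -0.71 (SE 0.22). The light chain B2M, without which MHC class I does not reach the surface, did not follow by its bright probe-sets, which differed by -0.15 and -0.20.

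CD58 encodes the ligand through which T and NK cells engage CD2, and its difference of -4.14 was the lowest of all genes. It was at 6.05 in DB, 3.41 in OCI-Ly7, 7.68 in RIVA, 3.47 in SU-DHL-4 and 9.25 in U2932. It was at 11.90 in FARAGE, 8.92 in NU-DHL-1, 11.40 in OCI-Ly19, 7.46 in SU-DHL-5 and 10.88 in SU-DHL-8. OCI-Ly7 and SU-DHL-4 were near the bottom of the scale, RIVA and U2932 reached into the sensitive range, and the interval of the difference was -7.00 to -1.28 (SE 1.28, unadjusted p 0.00913 and adjusted p 0.591 by limma). The 4 other CD58 probe-sets differed by -3.77 to -1.12. The intermediate lines HBL-1 at 3.29 and OCI-Ly3 at 3.33, were as low as OCI-Ly7, and MC-116 at 10.21 and NU-DUL-1 at 9.24 were in the sensitive range. MHC class II, which presents antigen to helper T cells, was lower for 9 of 12 genes with a median of -0.47, but the only member with an unadjusted p under 0.05 was the peptide-loading regulator HLA-DOB, which was higher (2.28, SE 0.68). Of the 20 immune synapse ligands that were listed with CD58, 2 were lower and 4 higher at an unadjusted p under 0.05, with a median of -0.03. The other lower member was TNFRSF14, the receptor known as HVEM, which did not overlap (-1.24, SE 0.30), and the higher members included the costimulatory ligand CD86 (2.56, SE 0.97) and CD40 (1.08, SE 0.42).

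The interferon-stimulated genes were mostly lower too. Of 43 measured, 31 were lower and 12 higher, with 11 lower and 2 higher at an unadjusted p under 0.05 and a median of -0.54. In the fits over 14 or 26 lines, 6 were lower and 1 higher by that measure. The mean level over the 43 genes was 6.88 to 7.44 in sensitive lines and 6.3 to 6.41 in resistant lines other than RIVA. RIVA, at 7.23, lay within the sensitive range, and the intermediate lines were at 6.48 to 9.72. GBP1, a guanylate-binding GTPase induced by interferon gamma, was at 4.28 in DB, 4.49 in OCI-Ly7, 4.47 in RIVA, 4.37 in SU-DHL-4 and 4.59 in U2932. It was at 7.57 in FARAGE, 9.09 in NU-DHL-1, 8.12 in OCI-Ly19, 4.45 in SU-DHL-5 and 8.42 in SU-DHL-8. The resistant lines were uniformly low and SU-DHL-5 alone of the sensitive lines was as low. The difference was -3.09 (SE 0.73, adjusted p 0.521 by limma). Without SU-DHL-5 it was -3.86 with an adjusted p of 0.00291 by limma. That fit leaves out the 1 line that went against the difference, and GBP1 passed in no other fit with a line left out.

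PARP14, an ADP-ribosyltransferase, was at 5.46 in DB, 5.62 in OCI-Ly7, 7.62 in RIVA, 5.57 in SU-DHL-4 and 6.91 in U2932, and at 7.99 in FARAGE, 9.29 in NU-DHL-1, 8.78 in OCI-Ly19, 8.94 in SU-DHL-5 and 8.01 in SU-DHL-8. Its groups did not overlap (-2.37, SE 0.46), and RIVA and U2932 were the resistant lines nearest to the sensitive ones, but its other probe-set differed by 0.01. The ubiquitin ligase DTX3L differed by -2.69 (SE 0.87), the transcription factor IRF1 by -1.13 (SE 0.35), the RNA sensor RIGI by -1.10 (SE 0.40) and XAF1 by -1.42 (SE 0.52). The 2 members that were higher were ISG20 and OAS1, an enzyme that makes the activator of RNase L (1.23, SE 0.51), so the list held members of both directions. The ubiquitin ligase RNF213, which was not listed with them, was at 5.31 to 6.79 against 6.88 to 7.63 (-1.46, SE 0.27).

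Interferon regulatory factors bind repeats of GAAA, and the promoters of these genes were searched on both strands for GAAA, any 2 bases and GAAA again, from 250 bases before to 50 bases after the gene start in RefSeq sequence of GRCh38.p14. The motif was found in 9 of 14 matched MHC class I promoters (64.3%), in 24 of 34 interferon-stimulated promoters (70.6%) and in 4.38% of 27305 promoters. Of the 16 matched members of both lists that were lower at an unadjusted p under 0.05, 9 held it (56.2%). Over all matched members of both lists it was 33 of 48 (68.8%), so the lower members did not hold it more often. A link of the motif to the class difference was not tested. Windows of 30 bases, read 5′ to 3′ along the gene's strand with the matched bases in capitals, are shown for 4 genes that were lower and for ISG20, which was higher with the same motif. They lie at chr1:89065316-89065345 on the minus strand for GBP1, chr3:122680800-122680829 on the plus strand for PARP14, chr6:29723268-29723297 on the plus strand for HLA-F, chr16:67936852-67936881 on the minus strand for PSMB10 and chr15:88638937-88638966 on the plus strand for ISG20.
GBP1: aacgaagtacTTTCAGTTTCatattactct
PARP14: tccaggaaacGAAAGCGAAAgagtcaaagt
HLA-F: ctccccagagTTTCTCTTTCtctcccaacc
PSMB10: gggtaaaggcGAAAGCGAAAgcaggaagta
ISG20: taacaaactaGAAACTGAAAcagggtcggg
The match is on the opposite strand in GBP1 and HLA-F and begins 127, 29, 156, 21 and 69 bases before the gene start in the order printed. PARP14 and PSMB10 hold the same matched bases, and a match describes the sequence and not occupancy by a factor.

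**Figure D3:**
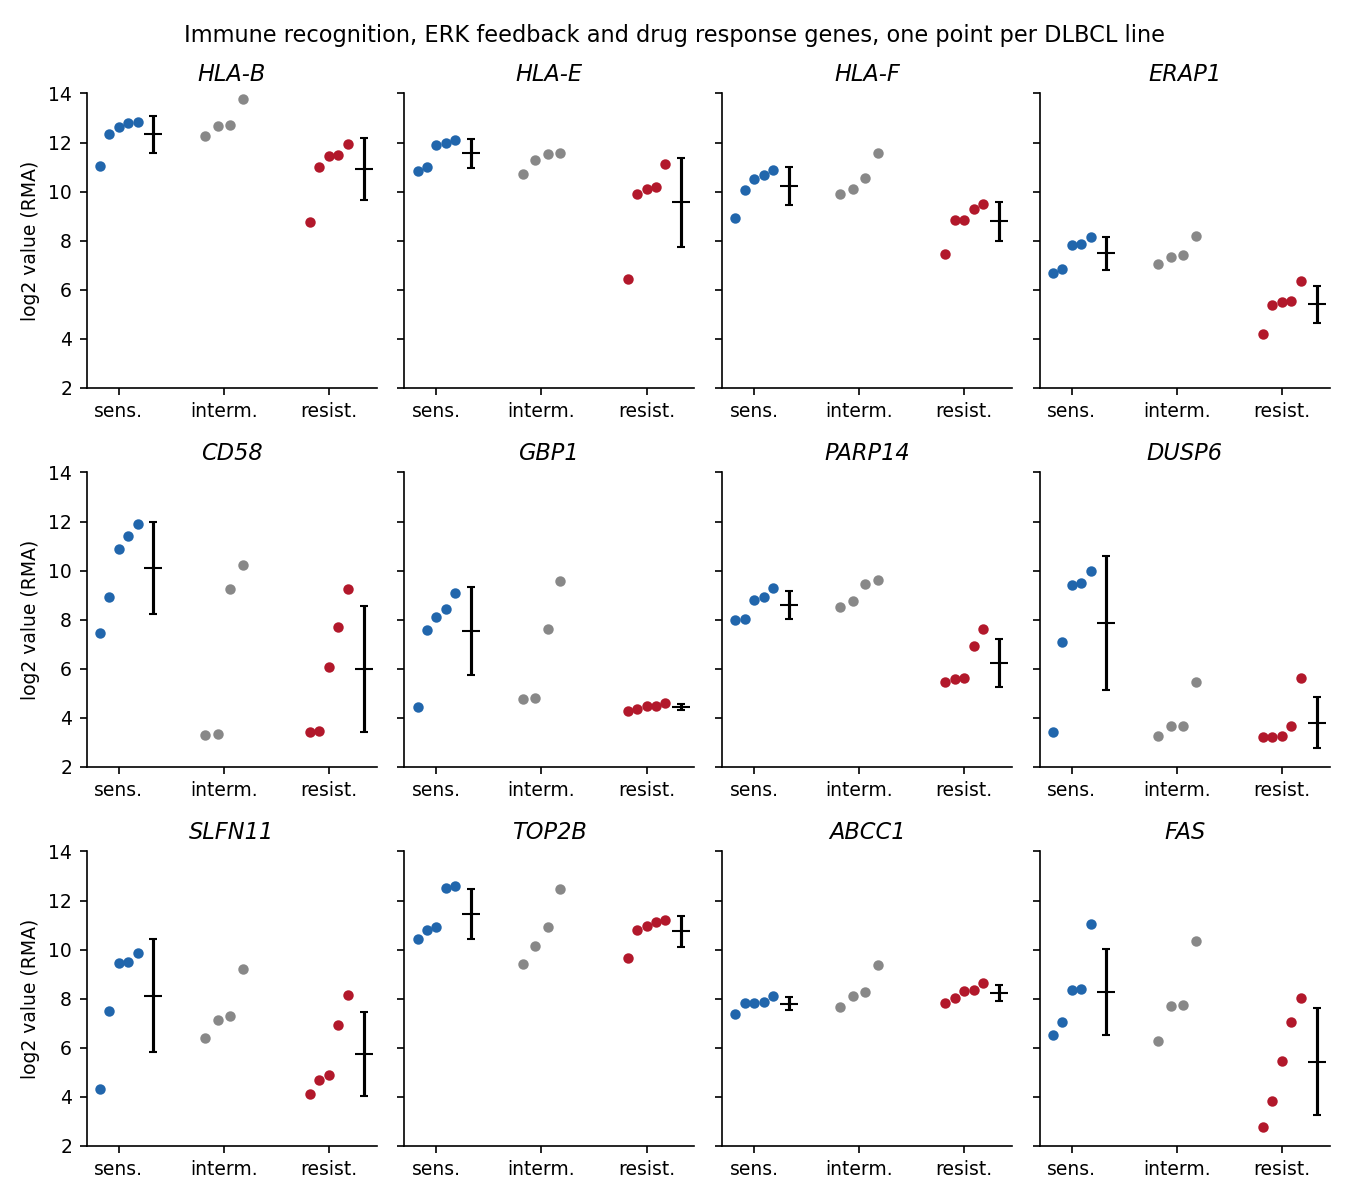
Expression on the log2 scale of 12 genes of immune recognition, ERK feedback and drug response in each DLBCL line by class, with black bars for the mean ± SD of the resistant and sensitive classes (n = 5 and 5) and intermediate lines in grey. GBP1 is at 4.28 to 4.59 in all resistant lines, CD58 and DUSP6 have wide spreads within a class, and TOP2B, ABCC1 and FAS overlap between classes.

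ERK signalling induces its own inhibitors, and this feedback list was lower in resistant lines for 10 of 14 genes, 4 of them at an unadjusted p under 0.05, with a median of -0.75. The 4 were ETV5, ETV4, DUSP6 and SPRED1, and the first pair did not overlap. DUSP6, the phosphatase that inactivates ERK, was at 3.22 in DB, 3.64 in OCI-Ly7, 5.62 in RIVA, 3.25 in SU-DHL-4 and 3.23 in U2932. It was at 3.42 in FARAGE, 9.48 in NU-DHL-1, 9.40 in OCI-Ly19, 7.09 in SU-DHL-5 and 10.00 in SU-DHL-8. FARAGE was as low as the resistant lines and RIVA was the highest of those, so the groups overlapped despite a difference of -4.09 (SE 1.18, adjusted p 0.556). ETV4 was at 5.95 to 6.76 against 6.99 to 9.0 (-1.69, SE 0.40). SPRED1, an inhibitor of RAS signalling, differed by -1.91 (SE 0.80). SPRY2, another such inhibitor, was at 7.81 in RIVA and at most 4.08 in every other of the 10 lines.

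The targets and transporters of doxorubicin itself did not pass, and most of their differences were within the spread between lines. TOP2A, the topoisomerase II of dividing cells, was at 11.98 ± 0.23 in resistant and 12.10 ± 0.22 in sensitive lines by a bright probe-set (SD, n = 5 and 5), a difference of -0.12 with an interval of -0.45 to 0.20. TOP2B, the isoform expressed also in resting cells, was at 9.64 in DB, 11.13 in OCI-Ly7, 11.21 in RIVA, 10.78 in SU-DHL-4 and 10.97 in U2932, and at 10.94 in FARAGE, 10.44 in NU-DHL-1, 12.53 in OCI-Ly19, 10.79 in SU-DHL-5 and 12.58 in SU-DHL-8. OCI-Ly19 and SU-DHL-8 were high, the rest overlapped, and the difference was -0.71 with an interval of -1.80 to 0.38. Of the 8 topoisomerases only TOP3A was lower at an unadjusted p under 0.05 (-0.51, SE 0.21), beside 4.5% of all genes.

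ABCB1 was near the bottom of the scale in both classes, at 3.66 and 4.05, with a difference of -0.39 (interval -0.89 to 0.11), and ABCG2, another pump, differed by -0.39 (interval -0.82 to 0.03). Both point estimates were on the lower side in resistant lines. ABCC1, which encodes the pump MRP1, was at 8.64 in DB, 8.34 in OCI-Ly7, 8.29 in RIVA, 8.03 in SU-DHL-4 and 7.82 in U2932. It was at 8.12 in FARAGE, 7.80 in NU-DHL-1, 7.87 in OCI-Ly19, 7.37 in SU-DHL-5 and 7.81 in SU-DHL-8. It was thus higher in resistant lines by 0.43 (SE 0.18, interval 0.03 to 0.83, adjusted p 0.638 by limma), with U2932 and SU-DHL-4 inside the sensitive range. Of 10 efflux genes it was the only one to differ at an unadjusted p under 0.05, beside 4.22% higher and 4.5% lower over all genes.

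Among enzymes that act on anthracyclines, NQO1, a quinone reductase induced by NRF2, was at 6.88 in DB, 6.98 in OCI-Ly7, 6.79 in RIVA, 6.22 in SU-DHL-4 and 6.37 in U2932, and at 8.04 in FARAGE, 8.26 in NU-DHL-1, 7.84 in OCI-Ly19, 7.59 in SU-DHL-5 and 7.55 in SU-DHL-8. Both classes were tight and did not overlap, and the difference was -1.21 (SE 0.19, adjusted p 0.329). CBR1, the carbonyl reductase that forms doxorubicinol, ranged from 4.35 to 9.29 over lines of both classes (-0.05, interval -2.69 to 2.59). In redox defence, 3 of 23 genes were lower at an unadjusted p under 0.05 and none was higher, beside 4.5% lower and 4.22% higher over all genes. They were GCLC, the catalytic subunit that limits glutathione synthesis (-0.66, SE 0.15, no overlap), and the metallothioneins MT2A (-0.66, SE 0.19, no overlap) and MT1X (-1.27, SE 0.32). Metallothionein genes are near-identical, so their probe-sets may share signal.

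Genes of the damage response varied in both directions, and their counts stand beside 4.22% higher and 4.5% lower over all genes. In the p53 pathway 7 of 21 measured genes were higher and 14 lower, with 2 and 3 at an unadjusted p under 0.05 and a median of -0.31. The higher pair was GADD45A, a stress-induced growth arrest gene that did not overlap (9.45 to 11.81 against 6.75 to 9.43, difference 1.67, SE 0.60), and RRM2B, a ribonucleotide reductase subunit (1.31, SE 0.46). The lower genes were the death receptor FAS, the p53 ubiquitin ligase MDM2 (-0.95, SE 0.39) and the metabolic regulator TIGAR (-1.06, SE 0.37). FAS was at 2.78 in DB, 7.04 in OCI-Ly7, 3.83 in RIVA, 5.47 in SU-DHL-4 and 8.02 in U2932, and at 11.06 in FARAGE, 8.38 in NU-DHL-1, 7.06 in OCI-Ly19, 8.35 in SU-DHL-5 and 6.53 in SU-DHL-8 (-2.85, SE 1.13). DB and RIVA were far below all sensitive lines and U2932 was well within their range. CDKN1A, the p21 inhibitor of the cell cycle, differed by -0.31 with an interval of -1.71 to 1.09.

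SLFN11, which blocks stalled replication forks and sensitises cells to DNA damage, was at 4.11 in DB, 4.89 in OCI-Ly7, 6.92 in RIVA, 4.69 in SU-DHL-4 and 8.14 in U2932. It was at 4.33 in FARAGE, 7.49 in NU-DHL-1, 9.85 in OCI-Ly19, 9.48 in SU-DHL-5 and 9.45 in SU-DHL-8. FARAGE was as low as DB, OCI-Ly7 and SU-DHL-4 and U2932 was above NU-DHL-1, and the difference was -2.37 with an interval of -4.96 to 0.21 (unadjusted p 0.0681 by limma). All 4 Schlafen genes measured were lower, with a median of -1.27 (-2.0 without RIVA and U2932, when 3 had an unadjusted p under 0.05), and SLFN5 alone had an unadjusted p under 0.05 (-0.68, SE 0.18), at values near the bottom of the scale. Double strand break repair was lower for 16 of 20 genes with a median of -0.26, and 2 of these, PALB2 (-0.47, SE 0.20) and XRCC6, a subunit of the Ku end-binding complex (-0.62, SE 0.24), had an unadjusted p under 0.05. Of 18 checkpoint genes 11 were higher and 7 lower with a median of 0.07, and at an unadjusted p under 0.05 WEE1 (0.68, SE 0.30) and TP53BP1 (0.57, SE 0.24) were higher and the kinase CHEK1 was lower (-0.61, SE 0.26). The probe-sets of CHEK1 disagree, since a dimmer one differed by 0.66 (SE 0.28) and the others by -0.56 and -0.45.

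The anti-apoptotic genes gave wide intervals. BCL2 was at 10.72 in DB, 4.03 in OCI-Ly7, 12.47 in RIVA, 4.30 in SU-DHL-4 and 12.13 in U2932, and at 9.29 in FARAGE, 9.71 in NU-DHL-1, 10.91 in OCI-Ly19, 4.22 in SU-DHL-5 and 6.61 in SU-DHL-8. Lines with and without BCL2 message were in both classes, and the difference of 0.58 had an interval of -3.92 to 5.09 and turned to -1.80 without RIVA and U2932. MCL1 differed by 0.42 (interval -1.17 to 2.00) and BCL2L1, which encodes BCL-XL, by 0.36 (interval -0.90 to 1.62). BCL2L2, which encodes BCL-W, was the only one of 5 with an unadjusted p under 0.05 and was lower (-1.05, SE 0.42), and none of the 10 pro-apoptotic members had one.

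Of 17 mature B-cell markers, 10 were higher and 7 lower in resistant lines, a split near that of all genes, of which 10317 were higher. At an unadjusted p under 0.05, 5 were higher and 1 lower, and the median of 0.43 was 0.17 without U2932 and 0.72 without DB. BLK, a kinase of the B-cell receptor, was at 9.64 to 11.04 in resistant and 6.31 to 9.64 in sensitive lines (2.05, SE 0.61). MS4A1, which encodes CD20, the target of rituximab, was at 10.97 to 11.83 in resistant lines and at 11.47 in FARAGE, 10.59 in NU-DHL-1, 8.48 in OCI-Ly19, 10.24 in SU-DHL-5 and 7.19 in SU-DHL-8 (1.65, SE 0.71). The other 3 were VPREB3 (2.62, SE 0.86), CD37 (1.85, SE 0.59) and CD79A (0.80, SE 0.28), and the lower one was EBF1, a transcription factor of early B cells (-1.53, SE 0.53).

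Germinal centre markers were higher for 12 of 16 genes with a median of 0.72 (1.10 without RIVA and U2932), and STAP1 alone had an unadjusted p under 0.05 (1.32, SE 0.43). Their mean level was 7.72 in RIVA and 9.85 in U2932. The median was 1.09 without RIVA alone and 0.8 without U2932 alone. BCL6, the repressor that defines germinal centre B cells, was at 11.09 to 12.89 in resistant lines and at 12.28 in FARAGE, 8.22 in NU-DHL-1, 9.82 in OCI-Ly19, 12.51 in SU-DHL-5 and 5.74 in SU-DHL-8. FARAGE and SU-DHL-5 were as high as the resistant lines, and the difference was 2.57 (SE 1.18, unadjusted p 0.0549 by limma). None of 19 ABC markers had an unadjusted p under 0.05, and their median was 0.12. In B-cell receptor signalling 10 of 15 genes were higher, with a median of 0.25. At an unadjusted p under 0.05 the phosphatases PTPN6, which encodes SHP1 (-2.10, SE 0.86), and INPP5D, which encodes SHIP1 (-0.92, SE 0.36), and the kinase subunit PIK3CD (-1.06, SE 0.44) were lower, and CD79A (0.80, SE 0.28) and the phospholipase PLCG2 (0.58, SE 0.26) were higher. Of 12 plasma cell markers TNFRSF17 alone had an unadjusted p under 0.05, and the median was 0.20. In the NF-κB list 11 of 18 genes were higher and 7 lower, with a median of 0.23. At an unadjusted p under 0.05 REL (1.85, SE 0.68), CD40 and the chemokine CCL4 (1.73, SE 0.69) were higher and none was lower. The mean level of this list was highest in the sensitive line FARAGE, at 9.65, among the lines compared.

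Of 28 proliferation genes 25 were lower, beside 9458 of 19775 over all genes. Yet only KIF11 (-0.65, SE 0.28) had an unadjusted p under 0.05 in that direction by its representative probe-set. CCNB2 had one in the other direction by a dim probe-set (0.60, SE 0.26), while its bright probe-set, at 11.36 against 11.55, differed by -0.19. The median of the 28 was -0.30, and MKI67, which encodes the Ki-67 antigen, was at 9.0 ± 0.64 in resistant and 9.53 ± 0.62 in sensitive lines (SD, n = 5 and 5). Among cell cycle regulators CCND3, the D-type cyclin of germinal centre cells, differed by -2.04 (SE 0.56), and RB1, the retinoblastoma protein, by -1.82 (SE 0.78). The marker lists of other cell types were near 0 by median, at 0.16 for 12 T-cell, -0.10 for 9 NK, -0.01 for 7 myeloid and 0.06 for 10 stromal genes. Single members lay further out, up to 2.43 for T-cell, down to -1.4 for NK, down to -1.48 for myeloid and from -1.18 to 1.47 for stromal genes. At an unadjusted p under 0.05 by limma, 1 NK gene was lower, and 1 stromal gene was higher and 1 lower.

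**Figure D4:**
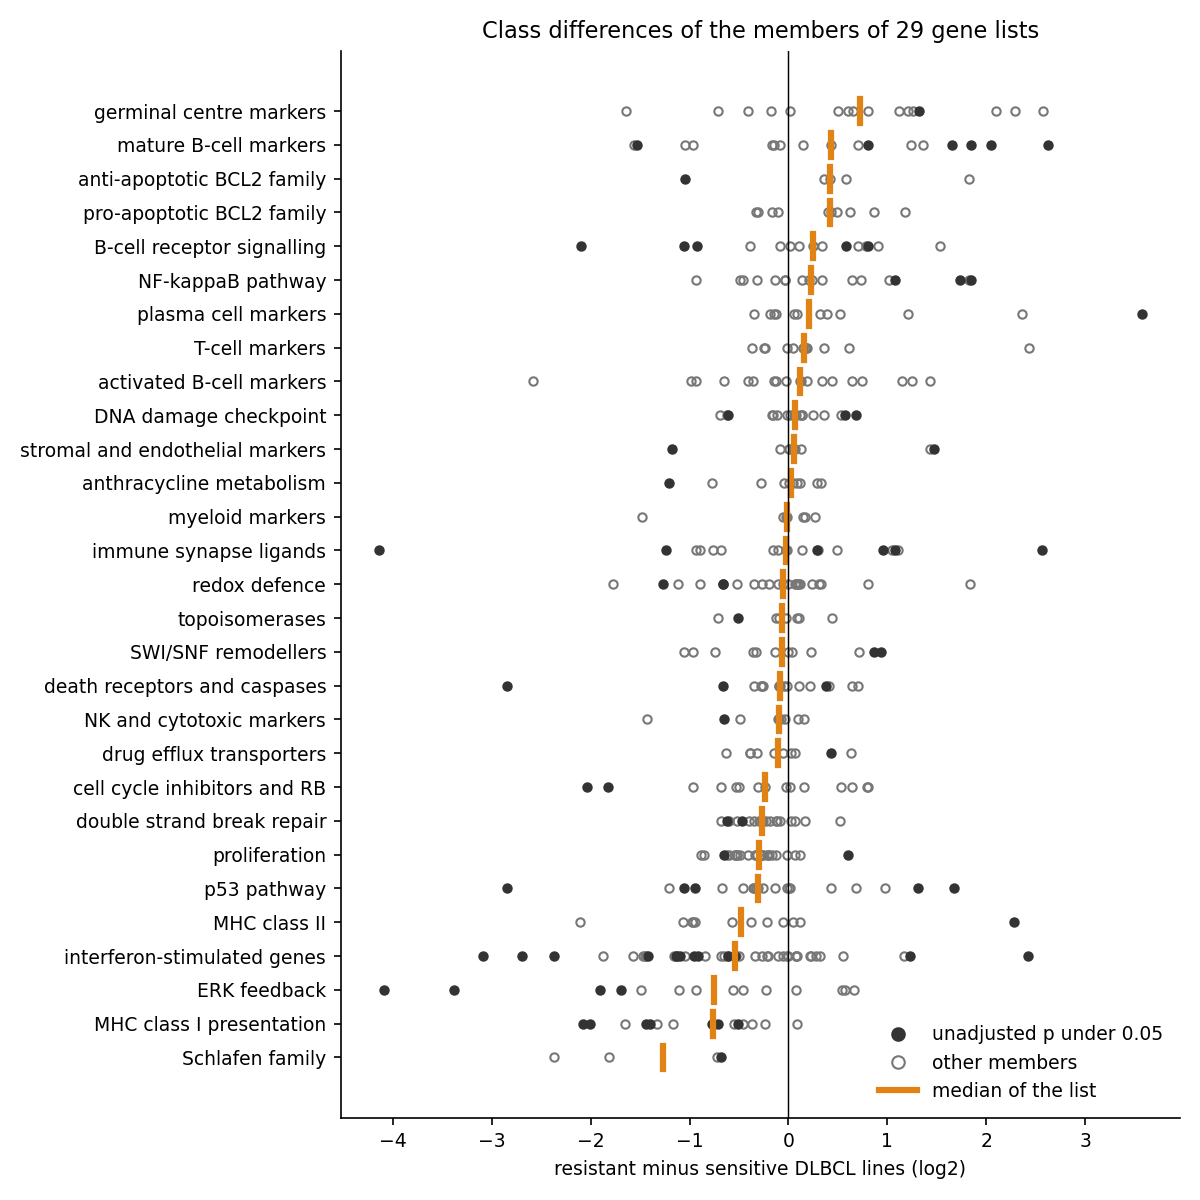
Resistant minus sensitive difference in DLBCL lines (horizontal axis, log2) of each measured member of 29 gene lists, with filled points for an unadjusted p under 0.05, open points for other members and an orange bar for the median of the list. The Schlafen, MHC class I, ERK feedback and interferon-stimulated lists have the lowest medians, at -1.27 to -0.54, and germinal centre markers the highest, at 0.72, beside 0.012 over all genes.

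The labels give AUC0 as a number, so expression was also fitted as a slope on AUC0 over all 14 DLBCL lines, which brings the intermediate lines in. No probe-set passed an adjusted p of 0.05 by limma, 3001 had an unadjusted p under 0.05, and the smallest adjusted p was 0.638. ISG20 was among those with that value, with a slope of 2.32 log2 units per 100 units of AUC0 (SE 0.37). PFN2 had a slope of 3.46 (SE 0.78, adjusted p 0.837). The intermediate lines did not lie between the classes for many genes. Their mean level over the 16 MHC class I genes was 9.18 to 9.65, their HLA-B was at 12.25 to 13.76, their ERAP1 at 7.03 to 8.19 and their PARP14 at 8.52 to 9.62, all within or above the sensitive range. In contrast their DUSP6 at 3.25 to 5.47, their NQO1 at 5.91 to 6.84 and their ERN1 at 6.97 to 8.44 were within or beyond the resistant range, and CNR1 was split between 3.58 in HBL-1 and 3.70 in OCI-Ly3 and 9.47 in MC-116 and 11.04 in NU-DUL-1.

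Whether the class difference of DLBCL was shared by MM was tested as an interaction with 4 resistant MM lines (KMM-1, KMS-11, KMS-12-PE and its sister line KMS-12-BM, the last pair not being independent) and 4 sensitive ones (MM1S, MOLP-8, NCI-H929 and AMO-1, labelled a plasmacytoma). The classes were set within each disease, with MM borders at 295.0 and 329.7, so a class name covers different AUC0 ranges. The sensitive MM line NCI-H929, at 291, had a higher AUC0 than the resistant DLBCL lines DB at 276 and SU-DHL-4 at 289. The effect differed between the diseases for 15 probe-sets (0.0275%) of 13 genes or loci. For 9 of these probe-sets the value was higher in resistant DLBCL lines and lower in resistant MM lines. ERN1 was 2.06 higher in DLBCL and at 8.65 against 10.62 in MM (-1.97), a difference between the diseases of 4.03 (SE 0.57, adjusted p 0.036 by limma). YPEL5 was 1.79 higher in DLBCL and differed by -2.68 in MM, and its other probe-set gave 1.82 and -2.75. DNAJB9, a chaperone of the endoplasmic reticulum that is induced through IRE1, differed by 0.92 and -1.79, and WIPI1, an autophagy protein, by 0.80 and -1.89. CREBRF (0.71 and -2.16), the transporter SLCO3A1 (1.47 and -1.65) and LOC100996756 (1.87 and -1.79) had the same pattern.

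For GPRC5D, an orphan receptor of plasma cells, the 10 DLBCL lines all lay at 5.52 to 6.04. In MM it was at 5.47 to 6.38 in resistant and 10.32 to 11.74 in sensitive lines, and the interaction of 5.42 had an adjusted p of 5.37e-06. The number of calls depended on single lines, with 1 call, that of GPRC5D, when NU-DHL-1, OCI-Ly19, SU-DHL-8, SU-DHL-4, U2932, KMS-12-BM or KMS-12-PE was left out, 2 or 3 without DB, MOLP-8 or NCI-H929, 24 without OCI-Ly7 or AMO-1 and 30 without MM1S. Without AMO-1 and KMS-12-PE together, which leaves 1 of the sister lines, 11 probe-sets were called, of which 4 (GPRC5D, ERN1, DNAJB9 and 1 of YPEL5) were among the 15. The calls of IGKC, MAGEA1, WIPI1, CREBRF and SLCO3A1 were lost, and both probe-sets of ISG20 were called (6.48 and 5.49).

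Among the genes described above, DUSP6 (-4.09 and -3.91), ERAP1 (-2.08 and -2.11), HEG1 (-3.10 and -2.84) and ETV5 (-3.38 and -2.24) were lower in resistant lines of both diseases, and none had an interaction that passed. PFN2 differed by 4.35 in DLBCL and 0.75 in MM, also without an interaction that passed. In MM it was at 8.01 to 10.15 in resistant and 7.09 to 10.09 in sensitive lines, so the MM classes overlapped. FAS (-2.85 and 2.69), ITGB2 (-2.68 and 1.18), ISG20 (2.42 and -3.11) and TNFRSF17 (3.57 and -2.15) differed in opposite directions without passing, with adjusted interaction p of 0.336, 0.317, 0.0633 and 0.244 by limma. The medians in MM were -0.26 for MHC class I, -0.23 for interferon-stimulated genes, -0.55 for ERK feedback and -0.49 for Schlafen genes, beside 0.039 over all genes.

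**Figure D5:**
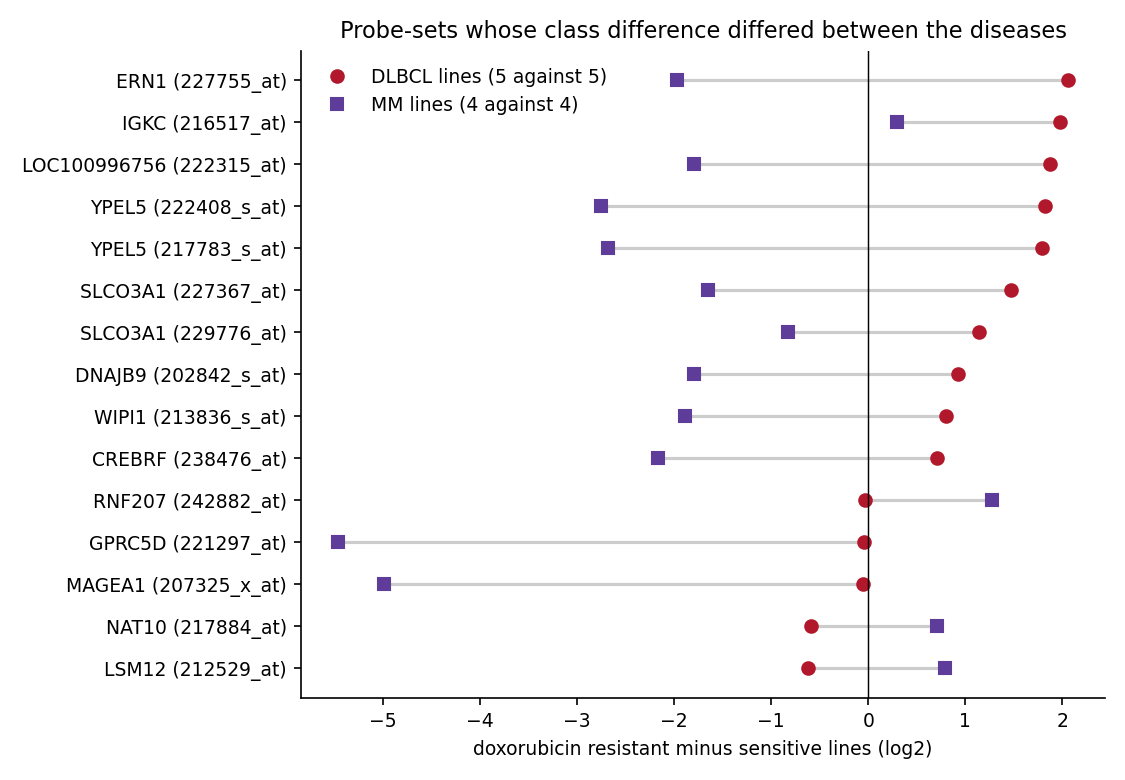
Resistant minus sensitive difference (horizontal axis, log2) in DLBCL lines (red circles, 5 against 5) and MM lines (purple squares, 4 against 4) for the 15 probe-sets whose difference itself differed between the diseases, joined by a grey line. For 9 of them the DLBCL point lies above 0 and the MM point below it, and GPRC5D has the widest gap, at 5.42.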

How the data were processed

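The authors deposited RMA-normalised log2 expression values of HG-U133 Plus 2.0 arrays. The submitters' processing notes name R 3.0.1, affy and RMA. The array processing was not repeated here, and depth does not apply to arrays, whose number limits the precision. From 54675 probe-sets, 62 controls were removed and 54613 were tested with limma 3.58.1 (R 4.3.3, lmFit and eBayes) without a filter, with p-values adjusted by Benjamini-Hochberg over all of them. The resistant and sensitive DLBCL lines (n = 5 and 5) were compared alone, the slope on AUC0 used 14 DLBCL lines and the interaction used 18 lines. Each line is a separate cell line on 1 array, so the spread covers lines and not repeat cultures, and KMS-12-PE is a sister line of KMS-12-BM. The doxorubicin class stands under a mislabelled field in the sample labels, and tertiles recomputed from AUC0 (borders 222.7 and 274.7) gave the labelled class for 14 of 14 DLBCL lines. The study's table of cell lines gives OCI-Ly7 as sensitive, and the label was used.

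Genes were named through the platform annotation, in which no symbol needed an update from RefSeq. Of the tested probe-sets 41091 had 1 symbol, 1801 several and 11721 none, and the 19775 genes with a symbol were each represented by the probe-set that varied most (SD) among DLBCL lines. Genes were named in the text by rule, as the 10 of the smallest p in each direction with a class mean of at least 6, the 10 of the largest difference in each direction among those without overlap, list members with an unadjusted p under 0.05, and a set of drug response genes whatever their values. CGAS, GAS7 and IGHM were named after their values were seen, and some probe-sets and examples from lists were singled out in the same way. The members and the gene lists were chosen with earlier results of these data known. Lists are described by counts and medians without a set test. Differences are resistant minus sensitive. The fits were checked on simulated data. Alternatives were 1 probe-set per gene, a filter on dim probe-sets, eBayes with trend and robust options, fits over 14 or 26 lines, median centring, repeated quantile normalisation, provider as a covariate, leaving out RIVA and U2932, leaving out AMO-1 and KMS-12-PE for the interaction, and leaving out each line. Leaving out each line in the slope and the interaction, and the brightest probe-set per gene for the lists, were added after seeing the data. Figures were drawn with matplotlib 3.10.9 under Python 3.11.15.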

Additional observations from a re-analysis of the deposited data

Results flagged for a closer look

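Single lines stood far from the rest of their class for 12 of 154 sets of 5 or 4 values examined, and chance alone marks about 1 in 20. Among resistant lines DB was low for HLA-B at 8.74 (others 11.01 to 11.93), for HLA-E at 6.44 (9.89 to 11.13) and for TOP2B at 9.64 (10.78 to 11.21), OCI-Ly7 was high for PSMB8 at 10.81 (9.75 to 10.05), and RIVA was high for DUSP6 at 5.62 (3.22 to 3.64). Among sensitive lines NU-DHL-1 was low for TNFRSF17 at 3.60 (7.20 to 8.20) and for OAS1 at 5.25 (6.77 to 7.15), and SU-DHL-5 was low for HLA-B at 11.05 (12.36 to 12.82). OCI-Ly19 was high for PFN2 at 6.49 (5.13 to 5.30) and for PSMB8 at 11.18 (10.57 to 10.73) and low for CD79A at 10.23 (11.29 to 11.68). The vincristine AUC0 of SU-DHL-8 was 126 against 54 to 58 in the other sensitive lines with a value.

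The class difference in DLBCL minus that in MM passed an adjusted p of 0.05 by limma for 15 probe-sets. It was 5.42 for GPRC5D, 4.94 for MAGEA1, 4.57 and 4.47 for the pair of YPEL5 probe-sets, 4.03 for ERN1, 3.66 for LOC100996756, 3.13 and 1.97 for the pair of SLCO3A1 probe-sets, 2.87 for CREBRF, 2.71 for DNAJB9, 2.70 for WIPI1, 1.69 for IGKC, -1.30 for NAT10, -1.30 for RNF207 and -1.41 for LSM12. The DLBCL classes hardly differed for GPRC5D (-0.04), MAGEA1 (-0.05) and RNF207 (-0.03), where the MM classes differed by -5.46, -4.99 and 1.28.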

How the results depend on the processing

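The class comparison called 2 probe-sets. It called 1 with 1 probe-set per gene, 1 with dim probe-sets left out, 1 with 14 DLBCL lines in the fit, 1 with 26 lines and 9 (8 higher and 1 lower) without RIVA and U2932, and 0 to 29 with a line left out, where 0 was without FARAGE, 1 without NU-DHL-1 or OCI-Ly7, 4 without DB and 29 without SU-DHL-5. Without FARAGE 3869 had an unadjusted p under 0.05 by limma, against 4142 with it. The slope called 0 in every fit, from 0 to 0 with a line left out. The interaction called 15, against 6 with 1 probe-set per gene, 22 with dim probe-sets left out, 11 without AMO-1 and KMS-12-PE and 1 to 30 with a line left out. Signs turned for BCL2 (-1.80) and MCL1 (-0.16) without RIVA and U2932, and with a line left out for CDKN1A (-0.70 to 0.04), TOP2A by its most variable, dim probe-set (-0.45 to 0.13), CBR1 (-0.64 to 0.64), BCL2 (-0.40 to 1.76) and MCL1 (-0.24 to 0.79). No list median among those rerun changed sign, but several moved by over 1.5 times. That of ERK feedback was -0.47 without SU-DHL-4 and that of double strand break repair -0.15 without SU-DHL-8. That of mature B-cell markers was 0.17 without U2932 and 0.67 to 0.72 without DB, OCI-Ly7 or NU-DHL-1, that of germinal centre markers 1.09 without RIVA or SU-DHL-5, and that of the p53 pathway -0.20 to -0.14 without FARAGE, NU-DHL-1, OCI-Ly7 or SU-DHL-4. With dim probe-sets left out, mature B-cell markers gave 0.75 and the 1 Schlafen gene left -2.37. The cause of these changes was not tested. No paired analysis was possible because each cell line belongs to a single class and the replicate numbers only name lines.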

Other observations

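3 genes outside the rule for naming were looked at after their values were seen. CGAS, the sensor of DNA in the cytosol, was at 4.51 in DB, 4.07 in OCI-Ly7, 5.76 in RIVA, 3.88 in SU-DHL-4 and 6.86 in U2932, and at 7.33 in FARAGE, 7.49 in NU-DHL-1, 6.82 in OCI-Ly19, 6.59 in SU-DHL-5 and 7.36 in SU-DHL-8. U2932 alone of the resistant lines reached the sensitive range, and the difference was -2.10 (SE 0.54, adjusted p 0.521 by limma). Without RIVA and U2932 it was -2.97 with an adjusted p of 0.0183 by limma, the 1 lower call beside 8 higher ones in that fit. That fit leaves out the resistant lines nearest to the sensitive ones for CGAS, a gene picked after its values were seen. The 2 other CGAS probe-sets differed by -0.25 and -0.16. GAS7 was at 4.96 to 6.32 in resistant lines and at 9.03 to 10.27 in all sensitive lines but SU-DHL-5, at 4.91, the line that was also low for GBP1. IGHM, the heavy chain of IgM, was at 5.84 in DB, 5.66 in SU-DHL-4 and 5.73 in SU-DHL-8 and at 11.52 or more in the other 7 lines, so lines with low IGHM were in both classes.

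The same lines were also scored for cyclophosphamide and vincristine, other drugs of the regimen. In the study's screen mafosfamide stood in for cyclophosphamide. The cyclophosphamide AUC0 was 307.5 ± 39.0 in doxorubicin-resistant (SD, n = 4) and 224.2 ± 64.1 in doxorubicin-sensitive lines (SD, n = 5), a difference of 83.3 (two-sided exact permutation p = 0.0714, adjusted over both drugs 0.114, smallest possible 0.00794). The vincristine AUC0 was 109.8 ± 19.0 and 73.5 ± 35.0 (SD, n = 4 and 4), a difference of 36.2 (two-sided exact permutation p = 0.114, adjusted 0.114, smallest possible 0.0286).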
